A study of Arabidopsis thaliana with 12 samples.

Results

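Of the 37478 non-control probes of the array, 8812 name no gene: their systematic name is a stretch of chromosome, such as chr3:16524216-16524275, in place of a locus or a transcript. These interval probes were taken by that name. The other probes name a locus (26236) or a transcript or cluster (2430). They were hybridised with RNA of whole 3-week seedlings of Arabidopsis thaliana, ecotype Columbia-0, in 3 groups of 4 arrays: 35S:MYB106SRDX:NOS, 35S:WIN1SRDX:NOS and wild type (WT). The 35S promoter is active in nearly all tissues, and each transgene joins a transcription factor of the epidermis and cuticle, MYB106 or WIN1 (also called SHN1), to SRDX, a short repression domain that turns an activator into a repressor. The construct was the one labelled difference between the groups, since all plants grew on MS agar with 1% sucrose at 23 °C under 16 h of light and 8 h of darkness. Each sample came from several seedlings of a plate, and neither a transgenic line nor separate cultures are named, so that p-values measure only how far these samples differ from each other, and that spread may be technical.

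Genomes are transcribed well beyond the annotated protein-coding genes: noncoding RNAs, antisense transcripts, unannotated exons and transposable elements all give RNA, mostly at low levels. In Arabidopsis the heterochromatin around the centromeres is rich in transposable elements, which are kept silent by DNA methylation. Next to the centromere of chromosome 2 the nuclear genome also carries a large inserted copy of mitochondrial DNA. The transcripts behind the interval probes are not annotated in the files, and the sequences of the probes and a genome of the intervals' build were not used here, so the probes are described by position and by neighbouring probes. Coordinates are those of the array files, and their genome build is one that the sources used here do not name.

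The 8812 intervals are short, 8696 of them 60 bases long, and no interval is named by more than 1 probe. The files write 4666 with the lower coordinate first (ascending below) and 4146 with the higher coordinate first (descending). Whether that order marks the strand probed is not stated in the files. Levels below are log2 of the background-corrected signal relative to the 75th percentile of the same array. Signals of different probes also depend on the probes themselves, so comparisons are between groups for the same probe.

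Most interval probes gave no signal. The scanner software called 5346 of them (60.7%) not well above background on any of the 12 arrays, 915 (10.4%) well above it on all 12, and the remaining probes on some arrays only. On a single array, 16.9%, 19.5%, 17.3% and 18.7% were well above background in MYB106SRDX, 18.1%, 15.6%, 19.1% and 21.5% in WIN1SRDX and 18.7%, 22.1%, 18.6% and 21.2% in WT. The ranges of the 3 groups overlap. Locus probes were above background at 75% to 76.5% in MYB106SRDX, 76.3% to 79.8% in WIN1SRDX and 78.0% to 79.4% in WT.

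**Figure D1:**
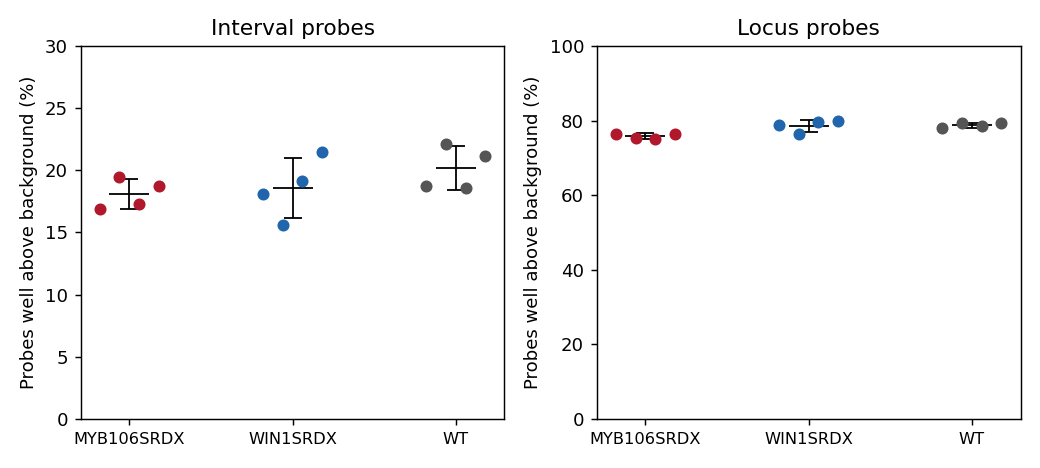
Share of probes well above background on each array, in percent of all probes of the kind, for interval probes (left) and locus probes (right, with another scale). Points are arrays, horizontal lines are group means and bars are ± 1 SD over 4 arrays; interval probes lie between 15.6% and 22.1% on every array, locus probes between 75% and 79.8%.

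A probe entered the test if the software called it well above background throughout 1 or more groups, on each of the 4 arrays. This held for 1520 interval probes (17.2%), against 79.0% of locus probes and 40.3% of transcript probes. The other 7292 interval probes were not tested, among them 1946 that were above background on some arrays. The filter keeps probes that are bright in 1 group, so it favoured a difference for a probe that passed it through that group alone. For a probe that did so and has only a lower bound on its fold, the bound is given as a description, without a p.

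Before the results on intervals, the constructs and tissues were checked with locus probes. The MYB106 probe averaged 4.17 ± 0.94 in MYB106SRDX, -3.89 ± 0.89 in WIN1SRDX and -2.29 ± 0.65 in WT (SD, n = 4 each), and the WIN1 probe averaged -7.49 ± 2.76 in MYB106SRDX, 5.60 ± 0.20 in WIN1SRDX and -7.62 ± 1.30 in WT. On the MYB106SRDX arrays the WIN1 probe was above background in replicate 3 alone, at -3.36, against -8.83, -8.62 and -9.16 on the others. Markers of roots and root hairs differed strongly: the summed linear signal of 10 root genes, in units of the 75th percentile, was 1.45 to 2.35 in MYB106SRDX, 7.43 to 12.3 in WIN1SRDX and 5.30 to 6.06 in WT. At an adjusted p under 0.05, 8 of these 10 were lower and 0 higher in MYB106SRDX than in WT. In WIN1SRDX 6 were higher and 1 lower than in WT. Over all tested probes 28.2% were lower and 22.8% higher in MYB106SRDX, and 16.1% and 16.3% in WIN1SRDX. COBL9, EXPA18 and RSL4 were above background on no MYB106SRDX array. The summed signal of 3 epidermal genes was 1.34 to 10.9 in MYB106SRDX, 1.38 to 6.85 in WIN1SRDX and 17.0 to 19.2 in WT. That of 6 green leaf genes was 293 to 443 in MYB106SRDX, 312 to 413 in WIN1SRDX and 418 to 466 in WT. Of these 6, 2 were lower and 0 higher in MYB106SRDX than in WT, and 0 passed in WIN1SRDX. The 2 were LHCB2.1, with a log2 change of -3.94 (adjusted p = 0.00874), and LHCB3, with -1.39 (adjusted p = 0.0105). The summed signal of 3 flower genes was 0.0174 to 0.459 in MYB106SRDX, 0.0219 to 3.05 in WIN1SRDX and 0.00846 to 0.392 in WT. In whole seedlings, fewer cells of a type and less RNA per cell cannot be told apart, and the part of these markers' tissues in the interval results was not tested.

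In MYB106SRDX seedlings 427 of the 1520 tested interval probes were lower and 274 higher than in WT, at an adjusted p under 0.05, which is what a call means below. The 701 called probes are 46.1% of those tested, against 51.0% of all 23226 tested probes (22.8% higher and 28.2% lower). The change was at least 2-fold for 125 of the higher and 287 of the lower probes, of 1520 tested. Over all 23226 tested probes it was so for 2305 higher and 4236 lower ones. The arrays of both groups did not overlap for 676 interval probes, 44.5%, against 51.7% of all tested probes. The median log2 change was -0.16 for interval probes and -0.06 for all tested probes. The split moved with the processing: 481 were higher and 260 lower after quantile normalization, 396 higher and 137 lower after normexp background correction of the median signal, and 274 higher and 424 lower with each array scaled to the median of probes above background on all arrays.

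In WIN1SRDX seedlings 351 interval probes were lower and 156 higher than in WT. These 507 are 33.4% of those tested, against 32.5% of all tested probes (16.3% higher and 16.1% lower), and 207 of the lower and 55 of the higher ones changed at least 2-fold. Over all 23226 tested probes, 1845 lower and 1624 higher ones did so. The arrays of both groups did not overlap for 571 interval probes (37.6%), against 42.5% of all tested probes. The median log2 change was -0.22 for interval probes and -0.02 for all tested probes. The share of interval probes called lies near that of all tested probes, and 30.8% of the interval calls were upward, against 50.3% of the calls over all tested probes. This lean was not particular to interval probes. Of the calls of transcript probes 30.3% were upward (10.2% of those tested were higher and 23.5% lower), and of the calls of locus probes 52.8%. On the authors' own scale 180 were higher and 245 lower, and on that scale the median of all tested probes stood at -0.11 in MYB106SRDX against WT, 0.10 in WIN1SRDX against WT and -0.18 between the lines.

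Between the lines, 245 interval probes were higher and 209 lower in MYB106SRDX than in WIN1SRDX. The 454 are 29.9% of those tested, against 40.6% of all tested probes (17.9% higher and 22.6% lower). The arrays of the lines did not overlap for 330 interval probes (21.7%), against 33.2% of all tested probes. The median log2 change was 0.05. Here too the split moved with the processing, to 493 higher and 114 lower after quantile normalization, 246 and 56 after normexp, and 140 and 272 on the authors' scale, while scaling to that median gave 251 and 207. Both comparisons with WT use the same 4 WT arrays, so their values are given side by side for each probe below, without a test of their likeness.

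**Figure D2:**
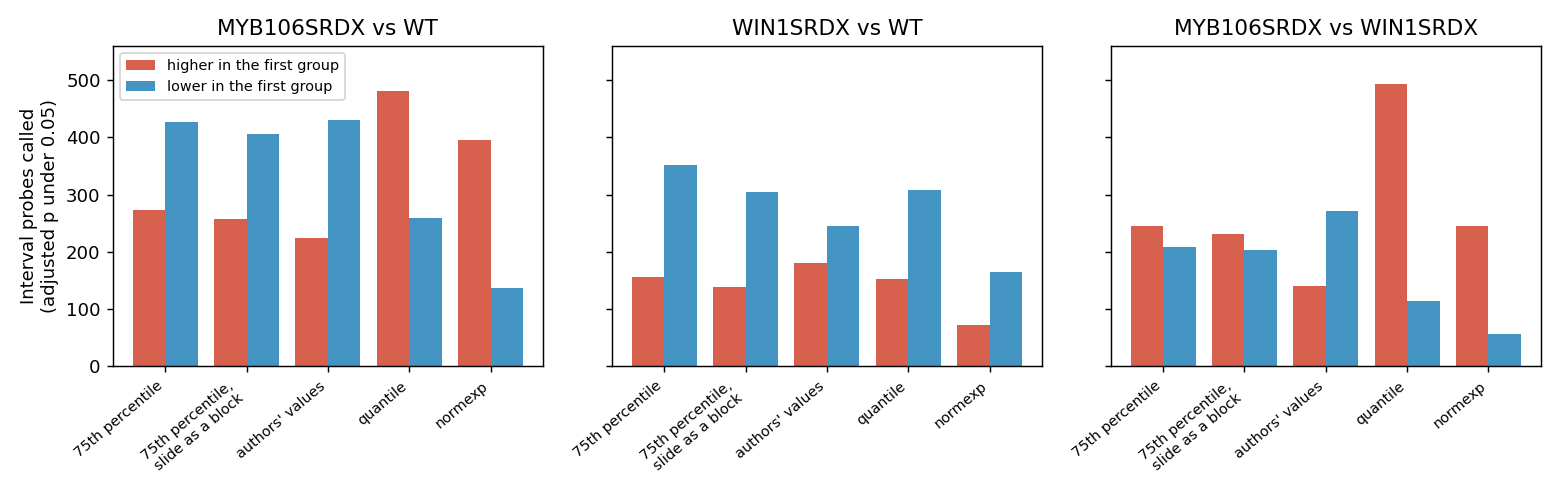
Number of interval probes called higher (red) and lower (blue) at an adjusted p under 0.05 in each comparison, by processing. With the 75th percentile, 274 were higher and 427 lower in MYB106SRDX than in WT, whereas quantile normalization gave 481 and 260; in WIN1SRDX against WT the lower probes were the larger number under all 5 settings drawn.

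Among the 274 probes higher in MYB106SRDX, 158 were above background on all 8 arrays compared and had no overlap between the groups; the 10 largest rises among them are described here. The largest was A_84_P14629, chr3:16524216-16524275, descending, which read 0.66, 2.56, 2.15 and 0.00 in MYB106SRDX, -1.52, -1.08, -1.10 and -0.79 in WIN1SRDX and -4.50, -4.75, -4.35 and -4.72 in WT. Its log2 change was 5.92 ± 0.47 (SE, adjusted p = 5.51e-06) in MYB106SRDX against WT, 3.46 ± 0.47 (SE, adjusted p = 0.000543) in WIN1SRDX against WT and 2.46 ± 0.47 (SE, adjusted p = 0.00213) between the lines. The 3 groups do not overlap, and the MYB106SRDX arrays spread most, over more than 2 log2 units. It was also the largest rise of an interval probe in WIN1SRDX by the same rule.

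A_84_P703001 (chr4:9834132-9834191, ascending) stood at -1.63, -1.33, -1.97 and -0.04 in MYB106SRDX, -3.33, -4.50, -1.78 and -3.19 in WIN1SRDX and -5.03, -5.71, -5.13 and -4.36 in WT. It was 3.81 ± 0.56 (SE, adjusted p = 0.000282) higher in MYB106SRDX and 1.86 ± 0.56 (SE, adjusted p = 0.0275) higher in WIN1SRDX than in WT. The arrays of MYB106SRDX and WT are apart, while 1 WIN1SRDX array, at -4.50, lies among the WT arrays. A_84_P740740 (chr5:17986282-17986341, ascending), read 2.73, 3.63, 4.06 and 2.27 in MYB106SRDX, 1.88, 2.36, 2.51 and 0.53 in WIN1SRDX and -0.02, 0.16, 0.25 and 0.04 in WT. It was higher by 3.06 ± 0.46 (SE, adjusted p = 0.00032) in MYB106SRDX and by 1.71 ± 0.46 (SE, adjusted p = 0.0164) in WIN1SRDX, with both lines clear of WT on every array.

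Other large rises were seen in MYB106SRDX with no call in WIN1SRDX. A_84_P701229 (chr4:12152627-12152686, descending) read 1.21, 0.19, 0.72 and 1.5 in MYB106SRDX, -1.40, -4.34, -3.23 and -4.52 in WIN1SRDX and -1.99, -3.00, -2.49 and -2.45 in WT. MYB106SRDX exceeded WT by 3.39 ± 0.60 (SE, adjusted p = 0.000881) and WIN1SRDX by 4.28 ± 0.60 (SE, adjusted p = 0.000325), the largest rise between the lines by the naming rule. WIN1SRDX itself differed from WT by -0.89 ± 0.60 (SE, adjusted p = 0.275). A_84_P717905 (chr2:16503281-16503340, descending) stood at -0.16, 0.19, 0.52 and -0.13 in MYB106SRDX, -1.48, -3.19, -2.85 and -2.72 in WIN1SRDX and -2.58, -2.86, -2.56 and -2.90 in WT, a change of 2.83 ± 0.32 (SE, adjusted p = 4.59e-05) in MYB106SRDX against WT and 2.67 ± 0.32 (SE, adjusted p = 0.000113) against WIN1SRDX. A_84_P21986 (chr2:9686022-9686081, ascending) was 2.94 ± 0.39 (SE, adjusted p = 0.000131) above WT and 2.0 ± 0.39 (SE, adjusted p = 0.00219) above WIN1SRDX.

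The remaining 4 of the 10 were A_84_P20867, A_84_P732310, A_84_P700528 and A_84_P738863, with log2 changes of 2.71, 2.30, 2.25 and 2.25 in MYB106SRDX against WT. A_84_P20867 (chr1:3491854-3491913) changed by -0.98 ± 0.57 (SE, adjusted p = 0.209) in WIN1SRDX and was 3.69 ± 0.57 (SE, adjusted p = 0.000594) higher in MYB106SRDX than in WIN1SRDX. A_84_P700528 (chr1:5227430-5227489) had the smallest SE of the 10, with -1.59, -2.41, -1.82 and -1.32 in MYB106SRDX, -2.89, -3.20, -3.48 and -3.25 in WIN1SRDX and -4.10, -3.89, -4.07 and -4.09 in WT, with both lines above WT (2.25 ± 0.21 (SE, adjusted p = 1.46e-05) for MYB106SRDX and 0.83 ± 0.21 (SE, adjusted p = 0.0123) for WIN1SRDX).

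Of the 427 probes lower in MYB106SRDX, 195 were measured on all 8 arrays and free of overlap. The largest fall among them was that of A_84_P703913, chr1:11469707-11469766, ascending, with -4.88, -5.65, -6.53 and -6.32 in MYB106SRDX, -2.43, -3.15, -3.34 and -2.67 in WIN1SRDX and -2.0, -2.21, -1.83 and -2.25 in WT. Its level changed by -3.77 ± 0.33 (SE, adjusted p = 1.03e-05) against WT and by -2.95 ± 0.33 (SE, adjusted p = 8.67e-05) against WIN1SRDX, while WIN1SRDX differed from WT by -0.83 ± 0.33 (SE, adjusted p = 0.0808). Only the MYB106SRDX arrays were far from the others.

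Other probes were low in both lines. A_84_P728892, chr3:16631379-16631438, descending, read -4.59, -3.78, -4.74 and -4.86 in MYB106SRDX, -3.28, -4.74, -5.08 and -5.28 in WIN1SRDX and -1.63, -1.15, -1.76 and -1.31 in WT. It changed by -3.03 ± 0.40 (SE, adjusted p = 0.000142) in MYB106SRDX and by -3.14 ± 0.40 (SE, adjusted p = 0.000383) in WIN1SRDX, the largest fall in that line among probes above background on all 8 arrays compared and without overlap, and the lines differed by 0.10 ± 0.40 (SE, adjusted p = 0.859). Every WT array lay above all 8 arrays of the lines. A_84_P733742, chr1:900834-900893, ascending, gave -5.07, -5.67, -5.10 and -6.38 in MYB106SRDX, -5.13, -4.38, -6.40 and -5.50 in WIN1SRDX and -2.87, -2.33, -2.85 and -3.09 in WT, a change of -2.77 ± 0.41 (SE, adjusted p = 0.000298) in MYB106SRDX and of -2.57 ± 0.41 (SE, adjusted p = 0.00122) in WIN1SRDX. A_84_P735315, chr4:10277321-10277380, ascending, changed by -2.87 ± 0.39 (SE, adjusted p = 0.000153) in MYB106SRDX and by -2.22 ± 0.39 (SE, adjusted p = 0.00186) in WIN1SRDX. Here too the WT arrays stood apart from both lines.

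The further falls in MYB106SRDX were those of A_84_P720778, A_84_P711648, A_84_P719748, A_84_P738801, A_84_P733785 and A_84_P158965, with log2 changes of -2.70, -2.62, -2.61, -2.58, -2.57 and -2.56. In WIN1SRDX against WT the same probes changed by -0.72, -1.53, -1.38, -1.24, -0.87 and -0.41, of which the first 4 passed and those of A_84_P733785 and A_84_P158965 (adjusted p = 0.0748 and 0.544) did not. The smallest SE of the 6 was that of A_84_P720778, chr1:25652707-25652766, ascending, with -5.97, -5.84, -6.73 and -6.08 in MYB106SRDX, -4.55, -3.66, -4.37 and -4.13 in WIN1SRDX and -3.68, -3.38, -3.42 and -3.33 in WT. For this probe MYB106SRDX lay below every array of the other groups, at -2.70 ± 0.22 (SE, adjusted p = 7.18e-06) against WT.

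**Figure D3:**
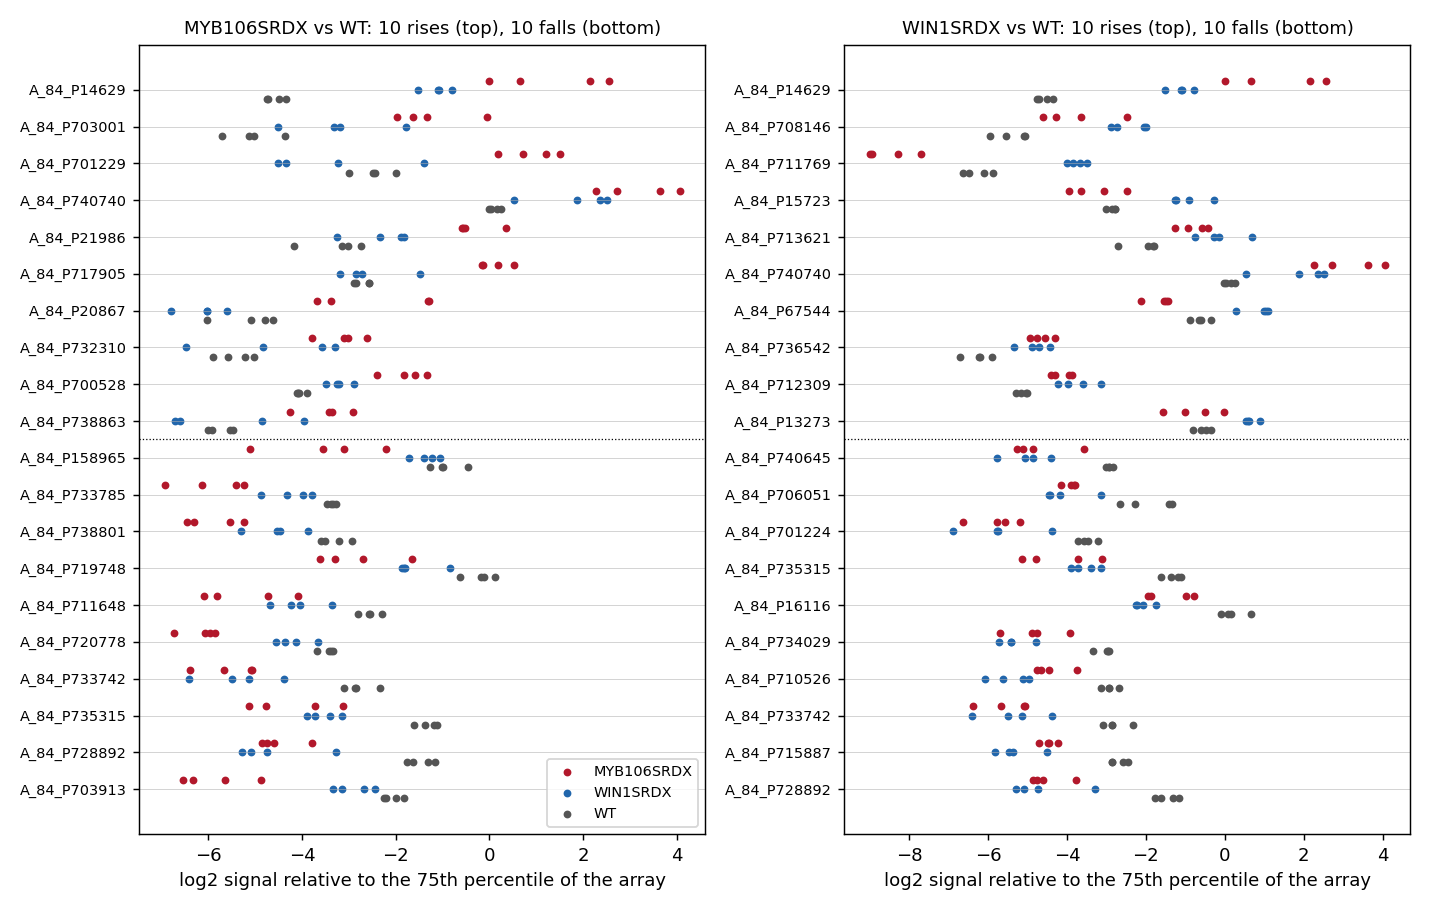
Levels of the 10 interval probes with the largest rises (above the dotted line) and the 10 with the largest falls (below it) in MYB106SRDX against WT (left) and WIN1SRDX against WT (right), on the log2 scale with the 75th percentile of each array at 0. Each point is 1 array, with MYB106SRDX in red, WIN1SRDX in blue and WT in grey; the arrays of the line named in the title and those of WT do not overlap for any probe drawn, as the choice of probes requires.

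Of the 156 probes higher in WIN1SRDX than in WT, 82 met the rule on background and overlap. After A_84_P14629 the largest rise was that of A_84_P708146, chr1:167023-167082, descending, which read -2.48, -4.60, -4.27 and -3.64 in MYB106SRDX, -2.0, -2.72, -2.05 and -2.89 in WIN1SRDX and -5.56, -5.94, -5.08 and -5.06 in WT. It was 3.00 ± 0.42 (SE, adjusted p = 0.000645) higher in WIN1SRDX than in WT, and 1.66 ± 0.42 (SE, adjusted p = 0.00739) higher in MYB106SRDX than in WT. All arrays of the lines lay above WT.

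Some probes moved in opposite directions in the lines. A_84_P711769, chr1:1480424-1480483, descending, read -3.85, -3.99, -3.5 and -3.67 in WIN1SRDX and -5.87, -6.10, -6.62 and -6.48 in WT, a rise by 2.52 ± 0.28 (SE, adjusted p = 0.000182), but was not well above background on any MYB106SRDX array, and there it was at least 1.67-fold lower than in WT (adjusted p = 0.000111) and at least 9.54-fold lower than in WIN1SRDX (adjusted p = 1.16e-06). A bound of this kind divides the brighter group's mean by a limit set for the dimmer group. On each of its arrays the limit is the lowest signal called well above background, or the probe's own signal where higher. Some spots brighter than that lowest signal were not called, so the bounds are approximate. A_84_P67544, chr2:13011833-13011892, descending, stood at -1.53, -1.5, -1.43 and -2.12 in MYB106SRDX, 1.09, 1.00, 0.29 and 1.05 in WIN1SRDX and -0.66, -0.34, -0.59 and -0.89 in WT. It was lower in MYB106SRDX (-1.02 ± 0.22 (SE, adjusted p = 0.00255)) and higher in WIN1SRDX (1.48 ± 0.22 (SE, adjusted p = 0.000744)) than in WT, and the 3 groups do not overlap. A_84_P712425, chr5:5904051-5904110, ascending, showed the reverse, with -3.65, -3.89, -3.57 and -3.42 in MYB106SRDX, -5.48, -5.48, -5.43 and -6.07 in WIN1SRDX and -4.90, -4.78, -4.54 and -4.60 in WT. It rose by 1.07 ± 0.17 (SE, adjusted p = 0.00037) in MYB106SRDX and changed by -0.91 ± 0.17 (SE, adjusted p = 0.00232) in WIN1SRDX.

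A_84_P15723 names the longest interval of all, 969 bases at chr4:12227260-12228228, ascending. It read -3.65, -2.48, -3.06 and -3.93 in MYB106SRDX, -0.91, -1.26, -1.24 and -0.28 in WIN1SRDX and -2.87, -3.00, -2.79 and -2.79 in WT, and was higher in WIN1SRDX than in WT (1.94 ± 0.31 (SE, adjusted p = 0.00112)), with -0.42 ± 0.31 (SE, adjusted p = 0.277) in MYB106SRDX against WT. The other rises named in WIN1SRDX were those of A_84_P713621, A_84_P736542, A_84_P712309 and A_84_P13273, by 1.94, 1.42, 1.39 and 1.23. The same 4 probes were at 1.27, 1.62, 1.00 and -0.22 in MYB106SRDX against WT, and all but A_84_P13273 (adjusted p = 0.528) passed there too.

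Among the 351 probes lower in WIN1SRDX, 194 met the same rule. A_84_P715887, chr2:3437589-3437648, ascending, read -4.48, -4.22, -4.70 and -4.46 in MYB106SRDX, -5.47, -5.83, -4.50 and -5.36 in WIN1SRDX and -2.46, -2.59, -2.86 and -2.87 in WT. It changed by -2.60 ± 0.25 (SE, adjusted p = 7.18e-05) in WIN1SRDX and by -1.77 ± 0.25 (SE, adjusted p = 0.000188) in MYB106SRDX, and WT was above both on every array. The log2 changes of A_84_P710526, A_84_P734029, A_84_P16116, A_84_P701224, A_84_P706051 and A_84_P740645 in WIN1SRDX were -2.51, -2.29, -2.29, -2.20, -2.13 and -2.09. Those 6 probes changed by -1.48, -1.77, -1.60, -2.29, -2.0 and -1.77 in MYB106SRDX, each with a call. A_84_P740645, chr2:9851389-9851448, descending, had the narrowest WT values, -2.83, -3.01, -2.94 and -2.93, against -5.26, -5.11, -4.85 and -3.56 in MYB106SRDX and -5.06, -4.41, -4.85 and -5.76 in WIN1SRDX.

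Between the lines the naming rule added probes of its own. A_84_P723518, chr3:7493265-7493324, ascending, read -1.45, -1.45, -1.33 and 0.06 in MYB106SRDX, -2.41, -5.96, -3.01 and -3.95 in WIN1SRDX and -6.83, -7.90, -6.47 and -5.89 in WT, where it was above background on 2 of 4 arrays. MYB106SRDX exceeded WIN1SRDX by 2.79 ± 0.72 (SE, adjusted p = 0.01), and the change against WT, 5.73 ± 0.72 (SE, adjusted p = 9.46e-05) in MYB106SRDX and 2.94 ± 0.72 (SE, adjusted p = 0.0103) in WIN1SRDX, rests in part on WT signals near background. A_84_P14465, chr2:15929772-15929831, descending, was low in MYB106SRDX alone, at -6.65, -5.11, -5.90 and -6.10 against -3.55, -3.16, -3.23 and -3.16 in WIN1SRDX and -3.36, -3.69, -3.41 and -3.21 in WT (-2.66 ± 0.27 (SE, adjusted p = 3.84e-05) against WIN1SRDX). A_84_P23421 and A_84_P728206, both descending on chromosome 5, were lower in MYB106SRDX than in WIN1SRDX, with log2 changes of -2.30 and -2.15.

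Some interval probes were well above background on all 4 arrays of a group and on none of another, and 4 of them are described, chosen after their values were seen. There were 27 such probes in MYB106SRDX with none in WT, and 79 in WT with none in MYB106SRDX. In WIN1SRDX against WT there were 14 and 29, and between the lines 11 were seen in MYB106SRDX with none in WIN1SRDX and 28 the other way. Such counts were not made over all tested probes, so they do not tell interval probes from the rest. A_84_P732531, chr1:7886789-7886848, descending, read -7.78, -7.37, -8.06 and -8.91 in MYB106SRDX, below the level called above background, -2.75, -2.46, -2.30 and -2.62 in WIN1SRDX and -0.99, -0.59, -0.83 and -0.70 in WT. It was at least 75.2-fold lower in MYB106SRDX than in WT (adjusted p = 1.11e-07) and at least 22.3-fold lower than in WIN1SRDX (adjusted p = 3.77e-07). The 3 groups are in separate ranges, with WIN1SRDX between the other two.

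In the opposite direction, A_84_P723836, chr1:4661267-4661326, descending, read -0.43, -1.05, -2.07 and -1.71 in WIN1SRDX, against -9.29, -9.65, -9.23 and -9.53 in WT, so that WIN1SRDX exceeded WT at least 57.4-fold. In MYB106SRDX it read -9.25, -9.37, -9.15 and -2.79, with only replicate 4 above background. A_84_P724245, chr3:22561630-22561689, descending, was above background on every array of both lines, -2.66, -3.14, -2.26 and -2.61 in MYB106SRDX and -4.52, -4.48, -2.88 and -5.69 in WIN1SRDX, and on no WT array, -9.10, -8.60, -7.87 and -8.38. MYB106SRDX exceeded WT at least 22.5-fold and WIN1SRDX did so at least 6.80-fold (adjusted p = 7.79e-06 and 0.000272). A_84_P733144, chr5:19031657-19031716, ascending, was above background in MYB106SRDX alone, at -5.57, -4.44, -3.87 and -3.98, at least 6.46-fold above WT and at least 6.29-fold above WIN1SRDX. Larger bounds than this were held by others, among them A_84_P724814, at least 15.7-fold higher in MYB106SRDX than in WT, and A_84_P249865, at least 10.3-fold lower.

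The naming rule also took the 5 interval probes with the highest WT signal. One of them, A_84_P723453 (chr5:10186377-10186436, ascending), read 3.91, 3.51, 3.55 and 3.57 in MYB106SRDX, 3.61, 3.76, 3.5 and 4.01 in WIN1SRDX and 3.89, 3.85, 3.88 and 3.93 in WT. It passed in neither line (-0.25 ± 0.13 (SE, adjusted p = 0.13) in MYB106SRDX and -0.16 ± 0.13 (SE, adjusted p = 0.356) in WIN1SRDX). Of the other 4, 3 lie near the centromere of chromosome 2. Among these, A_84_P736313 was 2.49, 1.89, 1.46 and 1.77 in MYB106SRDX, 1.09, 1.30, 0.95 and 1.02 in WIN1SRDX and 3.08, 2.77, 2.53 and 2.46 in WT, and lower in both lines (-0.81 ± 0.21 (SE, adjusted p = 0.00853) in MYB106SRDX and -1.62 ± 0.21 (SE, adjusted p = 0.000425) in WIN1SRDX). A_84_P710569 was called lower in both lines (-0.86 in MYB106SRDX and -0.74 in WIN1SRDX), and A_84_P705031 in WIN1SRDX alone (-0.54 in MYB106SRDX and -0.88 in WIN1SRDX). The remaining probe, A_84_P736161 (chr3:13881242-13881301, descending), was the least even, at -1.68, -0.33, 2.50 and 0.91 in MYB106SRDX, 2.13, 2.11, 3.73 and 3.25 in WIN1SRDX and 2.56, 1.05, 2.97 and 2.28 in WT, with no call against WT (-1.86 ± 0.79 (SE, adjusted p = 0.071) in MYB106SRDX).

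Along the genome, within 3 Mb of the approximate centromere centres, 201 of 1543 interval probes were tested (13%), against 1319 of 7269 on the arms (18.1%). By chromosome, 19.5%, 19.6%, 15.4%, 15.6% and 15.9% of the probes of chromosomes 1 to 5 were tested. The share of tested probes called did not vary much between chromosomes: 45.0% to 47.7% in MYB106SRDX against WT, 30% to 36.4% in WIN1SRDX against WT and 29.5% to 30.8% between the lines. These positional shares are descriptions, with no test.

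Around the centromere of chromosome 2, 103 of 356 interval probes were tested (28.9%), against 6.42% to 11.9% around the other centromeres. The median level of the 103 was -4.07, -4.33, -3.47 and -4.48 on the MYB106SRDX arrays, -4.83, -5.01, -4.46 and -5.17 on the WIN1SRDX arrays and -4.23, -4.47, -4.33 and -4.52 on the WT arrays. Between the lines 38 of the 103 were higher and 2 lower in MYB106SRDX than in WIN1SRDX (36.9% and 1.94%, against 17.9% and 22.6% of all tested probes), with a median log2 change of 0.74. MYB106SRDX exceeded WT at 25 (24.3%, near the 22.8% of all tested probes) and was below it at 10 (9.71%, against 28.2%), with a median of 0.31. WIN1SRDX was higher than WT at 3 (2.91%, against 16.3%) and lower at 20 (19.4%, near the 16.1% of all tested probes), with a median of -0.34. Among all interval probes the corresponding medians were 0.05, -0.16 and -0.22. Around the other 4 centromeres, with 19 to 30 tested probes each, they were -0.32 to 0.08, -0.91 to -0.22 and -0.51 to -0.11. Shifts against WT of this size or larger were thus seen around other centromeres too, downward in MYB106SRDX.

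Within the 3 slides, each of which held all 3 groups, the median difference of these 103 probes between MYB106SRDX and WIN1SRDX was 0.28, 1.06 and 0.81, between MYB106SRDX and WT 0.03, 0.45 and 0.35, and between WIN1SRDX and WT -0.16, -0.44 and -0.37. The counts rest on few arrays: without MYB106SRDX replicate 3 there were 16 in place of 25 probes higher in MYB106SRDX than in WT, without WIN1SRDX replicate 2 there were 24 in place of 38 higher than in WIN1SRDX, and without WT replicate 1 there were 13 in place of 20 lower in WIN1SRDX than in WT. Most of these probes lie in a stretch from 3.2 to 3.5 Mb, bounded after the values were seen, which holds 96 interval probes, 75 of them tested. In it 35 were higher and 0 lower in MYB106SRDX than in WIN1SRDX (median 0.85). In the rest of the chromosome 2 surroundings 3 of 28 were higher and 2 lower (median 0.18).

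The mitochondrial insertion named above lies near this centromere, but whether these intervals fall into it was not checked here. Of 4 tested probes for loci of the mitochondrial genome, 2 were higher and 0 lower in MYB106SRDX than in WIN1SRDX, with a median log2 difference of 1.21, and of the 4, 1 was higher and 1 lower in MYB106SRDX than in WT (median 0.74), and 0 were higher and 1 lower in WIN1SRDX than in WT (median -0.52). The 1 tested probe for a chloroplast locus was also called higher in MYB106SRDX than in WIN1SRDX, by 0.99, and lower in WIN1SRDX than in WT, at -0.90, and stood at 0.08 in MYB106SRDX against WT. Over all tested probes, 17.9% were higher and 22.6% lower in MYB106SRDX than in WIN1SRDX. Against WT the shares were 22.8% and 28.2% in MYB106SRDX and 16.3% and 16.1% in WIN1SRDX. Counts over so few organelle probes do not tell them from the rest. The part of organelle RNA in the chromosome 2 values was not tested.

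**Figure D4:**
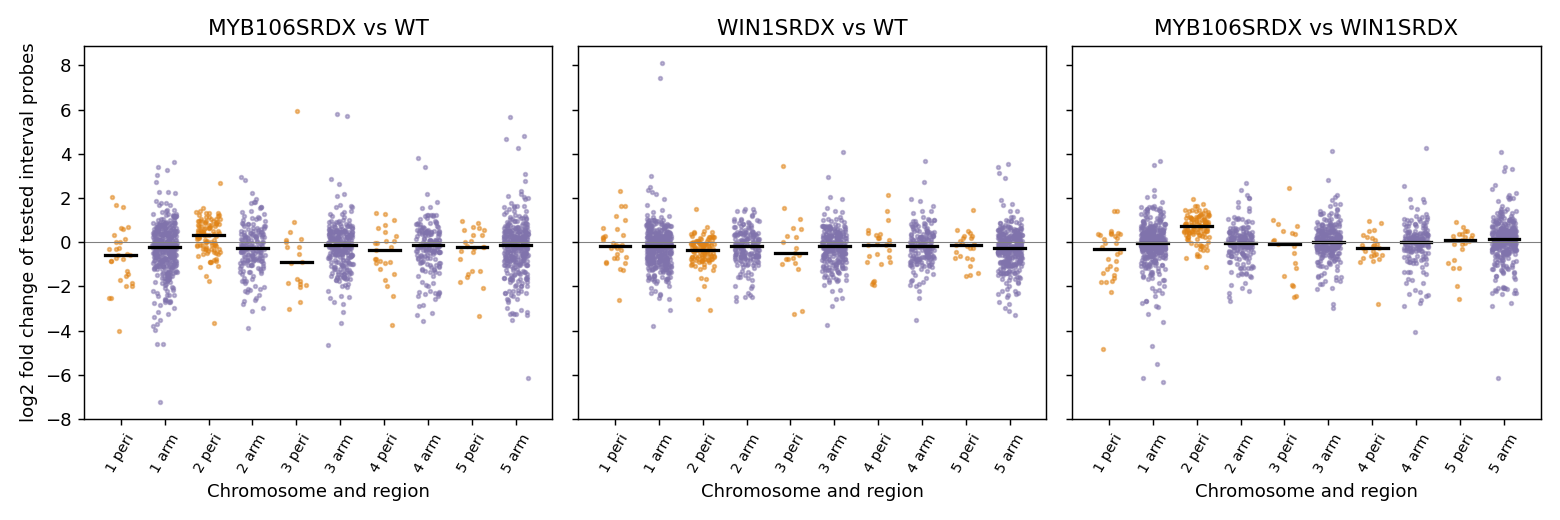
Log2 fold change of the tested interval probes in each comparison, by chromosome and by region (peri, within 3 Mb of the approximate centromere centre, in orange; arm, in violet). Points are probes and black lines are medians. The median of chromosome 2 peri is 0.31 in MYB106SRDX against WT, -0.34 in WIN1SRDX against WT and 0.74 between the lines. The other peri medians lie between -0.91 and -0.22, -0.51 and -0.11, and -0.32 and 0.08 in the same comparisons. The chromosome arms lie between -0.27 and 0.12.

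Neighbouring intervals tended to move together when their coordinates ran in the same order. Of 1515 pairs of adjacent tested probes, 150 had starts within 1 kb, 126 in the same order and 24 in opposite order. The median absolute difference in log2 change between members of a same-order pair was 0.27 in MYB106SRDX against WT and 0.30 in WIN1SRDX against WT, and the correlation of their changes was 0.81 and 0.76. For the opposite-order pairs the differences were 0.73 and 0.70 and the correlations 0.21 and -0.20. Between the lines the contrast was smaller, with a median difference of 0.31 and a correlation of 0.74 for same-order pairs, and 0.49 and 0.46 for opposite-order pairs. Pairs 10 to 100 kb apart (761) differed by 0.95 and 0.72, with correlations of 0.01 and 0.02.

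The correlations are over pairs of probes, which share arrays and, when close, may share a transcript, and are given as a description. Leaving out the chromosome 2 surroundings, 103 same-order pairs had correlations of 0.84 and 0.82 and 11 opposite-order pairs -0.33 and -0.45. Of the 37 same-order pairs within 1 kb in which both members were called in MYB106SRDX against WT, 34 were called in the same direction, and of 25 such pairs in WIN1SRDX against WT all 25 were. Of the opposite-order pairs 3 of 6 and 3 of 4 were.

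**Figure D5:**
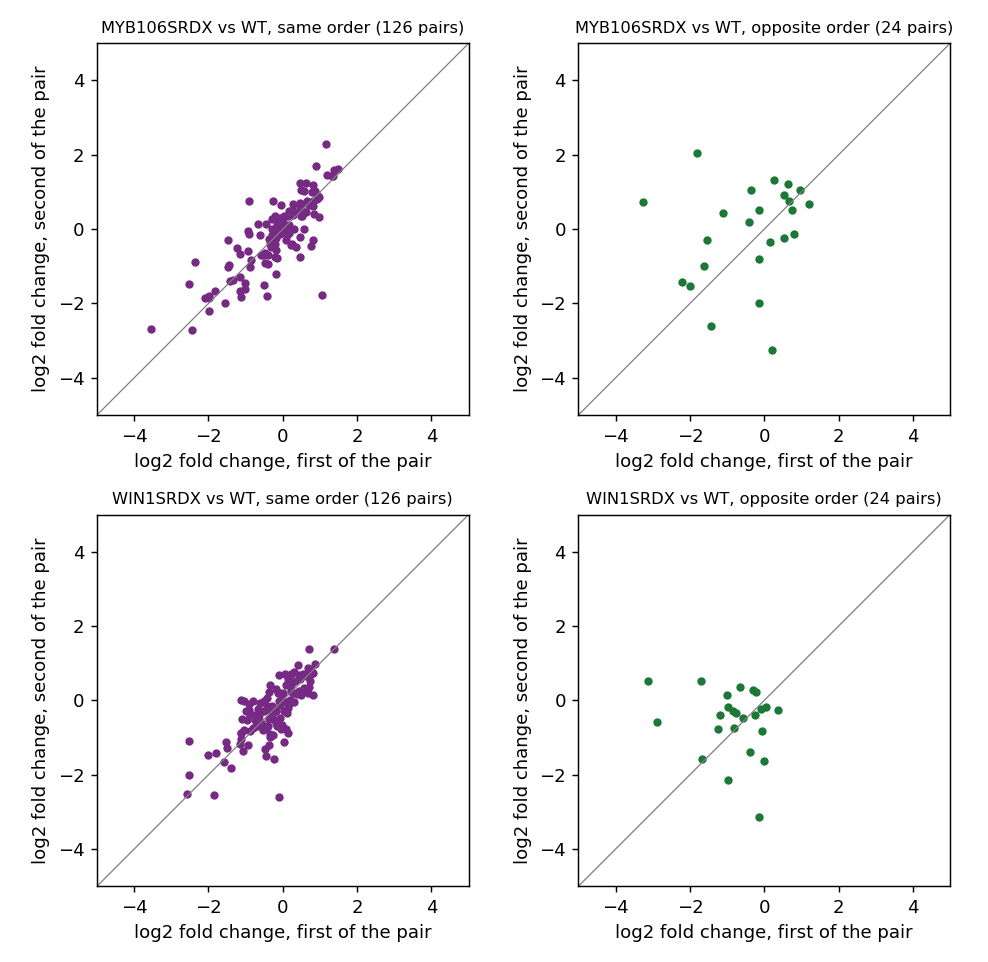
Log2 fold changes of adjacent tested interval probes with starts within 1 kb, the first of each pair on the x axis and the second on the y axis, for pairs written in the same order (left, 126) and in opposite order (right, 24), in MYB106SRDX against WT (top) and WIN1SRDX against WT (bottom). The grey line marks equal change; same-order pairs gather along it (r = 0.81 and 0.76), opposite-order pairs less so (r = 0.21 and -0.20).

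A chain is here a run of consecutive tested interval probes, starts at most 5 kb apart, all called in 1 direction. There were 55 chains in MYB106SRDX against WT (20 higher and 35 lower, with 118 probes), 41 in WIN1SRDX against WT (9 higher and 32 lower, with 88 probes) and 30 between the lines (21 higher and 9 lower in MYB106SRDX, with 66 probes). Most chains were pairs, and 7, 6 and 4 had 3 or more members. Calls were frequent, at 46.1%, 33.4% and 29.9% of tested interval probes, and the number of chains expected from that alone was not computed. Chains were not counted for other kinds of probe either, so these counts do not tell interval probes from the rest. The longest in MYB106SRDX against WT had 4 ascending probes between 3278316 and 3284900 on chromosome 2, inside the stretch described above.

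Those 4 probes, A_84_P734190, A_84_P741127, A_84_P708329 and A_84_P720934, were higher in MYB106SRDX than in WT by 1.24, 1.15, 1.20 and 1.35 and differed by -0.15, -0.31, -0.05 and -0.08 in WIN1SRDX, with no call there. The last of them read -0.76, -1.38, -0.51 and -1.79 in MYB106SRDX, -2.48, -2.89, -1.84 and -2.94 in WIN1SRDX and -2.35, -2.32, -2.52 and -2.64 in WT. On these arrays MYB106SRDX was above WT throughout, and replicate 4 was the lowest of its group at all 4 probes. The call of A_84_P741127 (adjusted p = 0.0247) was lost with the slide as a block (adjusted p = 0.0511), without MYB106SRDX replicate 3 (adjusted p = 0.0681) and without WT replicate 1 or 4 (adjusted p = 0.0574 and 0.0577).

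The second chain in MYB106SRDX spanned 832 bases of chromosome 5, 21452407 to 21453238, where 2 descending probes flank an ascending one. A_84_P709131 read -2.17, -1.07, -2.88 and -2.48 in MYB106SRDX, -1.18, -1.65, -1.19 and -0.51 in WIN1SRDX and -0.20, 0.01, 0.32 and 0.15 in WT. It changed by -2.22 ± 0.35 (SE, adjusted p = 0.000465) in MYB106SRDX and by -1.20 ± 0.35 (SE, adjusted p = 0.0247) in WIN1SRDX. Its partner A_84_P719748 changed by -2.61 ± 0.40 (SE, adjusted p = 0.000332) and by -1.38 ± 0.40 (SE, adjusted p = 0.0217). The ascending A_84_P714430 between them read -6.56, -6.76, -6.75 and -6.81 in WT, was above background on no MYB106SRDX array and was at least 1.22-fold lower there. This probe entered the test through WT alone. Its call was lost with signals raised to the background floor (log2 change -0.29, adjusted p = 0.0554), and its direction turned under normexp (0.25, adjusted p = 0.3).

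On chromosome 1, 3 ascending probes between 12052217 and 12054078 were lower in MYB106SRDX. A_84_P739558 read -6.25, -6.40, -6.31 and -6.25 in MYB106SRDX, -5.43, -5.02, -5.10 and -4.85 in WIN1SRDX and -4.85, -4.31, -5.09 and -4.75 in WT (-1.55 ± 0.17 (SE, adjusted p = 4.07e-05) against WT). A_84_P722902 was at -2.0 ± 0.49 (SE), above background on 3 arrays of each line. It entered the test through WT alone, so no p is given. A_84_P719995, above background on no MYB106SRDX array, was at least 2.25-fold lower (adjusted p = 9.42e-06). None of the 3 was called in WIN1SRDX, with -0.35, -0.91 and -0.25, and none passed in MYB106SRDX under normexp, with -0.34, -0.42 and -0.09.

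In WIN1SRDX against WT the leading chain lies on chromosome 3 between 21943886 and 21944977, with 3 descending probes. A_84_P710526 read -4.45, -3.74, -4.76 and -4.66 in MYB106SRDX, -4.95, -6.07, -5.61 and -5.10 in WIN1SRDX and -2.94, -3.13, -2.68 and -2.93 in WT, and changed by -2.51 ± 0.27 (SE, adjusted p = 0.000157) in WIN1SRDX. Next to it, A_84_P716951 was above background in WT alone, at -5.20, -4.93, -5.0 and -5.43, and at least 3.63-fold lower in MYB106SRDX and at least 3.82-fold lower in WIN1SRDX. The third, A_84_P708093, was -1.10 ± 0.18 (SE, adjusted p = 0.00152) in WIN1SRDX and -0.29 ± 0.18 (SE, adjusted p = 0.214) in MYB106SRDX. A_84_P716951 entered the test through WT alone, so the filter favoured its fall, and its part in the chain is only a description. Of the others, A_84_P710526 was called in both lines and A_84_P708093 in WIN1SRDX alone.

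The other chains of 3 in WIN1SRDX named by the rule lie on chromosome 1. Between 6143944 and 6145190, A_84_P740428 and A_84_P735141 were lower in WIN1SRDX, with log2 changes of -1.85 and -2.01, each above background on 3 WIN1SRDX arrays, and A_84_P730668, on none, was at least 2.32-fold lower. All members of this chain entered the test through WT alone, so the filter favoured a fall, and the chain is only a description. Between 9727548 and 9732158, A_84_P728240 and A_84_P702072 were lower, with log2 changes of -1.59 and -1.66, and so was A_84_P706995, in the opposite order, with -0.57 (adjusted p = 0.0251). Of these, A_84_P702072 entered the test through WT alone. The call of A_84_P706995 was lost in 11 alternatives, among them the slide as a block (adjusted p = 0.0592), the authors' scale (adjusted p = 0.0718), normexp (adjusted p = 0.699) and leaving out WIN1SRDX replicate 1 or 3 or any 1 WT array (adjusted p = 0.0518 to 0.0637). Under normexp A_84_P702072, A_84_P730668, A_84_P735141 and A_84_P740428 kept the direction and were not called, at -0.35, -0.37, -0.45 and -0.51.

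Among interval probes of opposite order, 202 neighbouring pairs overlap. For 168 of these pairs neither probe was tested, for 28 only 1 was, and for 6 both were. Of the 6, the set on chromosome 5 at 20813218 to 20813318 showed the largest contrast, and is described after its values were seen. The descending A_84_P730955 read -9.24, -8.63, -9.16 and -8.08 in MYB106SRDX, -9.13, -8.97, -9.20 and -7.28 in WIN1SRDX and -5.17, -5.07, -5.77 and -6.04 in WT, so that it was above background on no MYB106SRDX array, 1 WIN1SRDX array and all WT arrays. It was at least 2.82-fold lower in MYB106SRDX, and it entered the test through WT alone. The ascending A_84_P730660, which shares 24 bases with it, read -4.32, -4.61, -4.71 and -4.21 in MYB106SRDX, -4.94, -4.53, -4.36 and -4.84 in WIN1SRDX and -5.25, -4.89, -5.33 and -5.32 in WT.

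A_84_P730660 was thus higher in both lines, by 0.73 ± 0.17 (SE, adjusted p = 0.00433) in MYB106SRDX and 0.53 ± 0.17 (SE, adjusted p = 0.035) in WIN1SRDX. The other ascending probe, A_84_P736816, which shares 55 bases with the descending one, was at 0.21 ± 0.22 (SE, adjusted p = 0.453) and -0.15 ± 0.22 (SE, adjusted p = 0.626).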

How the data were processed

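One-colour Agilent arrays were hybridised with 1 µg of Cy3-labelled total RNA, per the labels. The authors deposited a value table and 1 scanner file per array (per the file headers, from version 9.1.3.1 of Agilent Feature Extraction). The intensity used (gProcessedSignal) is background-corrected and linear, per the file headers. The value table holds the ratio of the deposited intensity to a constant, about 1083 in MYB106SRDX, 995.6 in WIN1SRDX and 1264 in WT, within 1% for at least 99.9% of the probes of each array. It is therefore linear and not centred, and the sources used here do not say why each group has its own constant. Its columns had medians of 0.0698, 0.0598, 0.0652 and 0.0758 in MYB106SRDX, 0.0977, 0.0867, 0.137 and 0.110 in WIN1SRDX and 0.0996, 0.0966, 0.0993 and 0.109 in WT.

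Control spots and outlier-flagged spots were left out, spots of a probe were averaged, and log2 intensity was taken relative to the 75th percentile of each array. Probes well above background throughout 1 or more groups, on each of the 4 arrays, were fitted in 1 limma model over the 3 groups (lmFit and eBayes of limma 3.58.1, R 4.3.3, with 9 residual degrees of freedom), with Benjamini-Hochberg adjustment over all 23226 tested probes in each comparison. Calls are at an adjusted p under 0.05. The fit was tested on simulated data. No spot used was saturated, and the number of arrays limits the precision.

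Interval probes, lists and rules were chosen with earlier results of these data known. Named are the 10 largest rises and falls against WT (6 between the lines) among called probes above background on the 8 arrays compared, with no overlap between groups, the 5 highest in WT, and up to 3 chains for each comparison with WT. Centromere centres were set approximately at 15, 3.6, 14, 4 and 12 Mb of chromosomes 1 to 5. The 12 arrays came from 3 slides, each holding all 3 groups, and the slide coincided with the scan. Array correlations over all tested probes were 0.938 to 0.995 within groups and 0.840 to 0.934 between groups. Within WT they were 0.990 to 0.995, within MYB106SRDX 0.944 to 0.975 and within WIN1SRDX 0.938 to 0.975. The fit used 1 spread for the 3 groups, so SEs between the lines may be too small. Alternatives were normexp background correction, quantile normalization, the authors' values, other filters and fits, blocks for slide or replicate number, and leaving out each array.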

Additional observations from a re-analysis of the deposited data

Results flagged for a closer look

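In 186 groups of 4 arrays, over the 62 named probes, 11 had 1 array far from the other 3 by Dixon's test at the 95% level, where chance gives about 1 group in 20. Among probes named for a rise, A_84_P21986 read 0.36 in MYB106SRDX replicate 3, against -0.59 to -0.52 on the other MYB106SRDX arrays. A_84_P723518 read 0.063 in MYB106SRDX replicate 4, against -1.45 to -1.33. A_84_P67544 was lowest in MYB106SRDX replicate 4 at -2.12, against -1.53 to -1.43, and in WIN1SRDX replicate 3 at 0.29, against 1.00 to 1.09. A_84_P712425 read -6.07 in WIN1SRDX replicate 4, against -5.48 to -5.43, and A_84_P700528 read -3.89 in WT replicate 2, against -4.10 to -4.07.

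Among probes of the falls and chains, A_84_P719748 read -0.84 in WIN1SRDX replicate 4, against -1.86 to -1.80 on the other WIN1SRDX arrays. A_84_P728240 read -8.36 in MYB106SRDX replicate 1, against -6.71 to -6.43, A_84_P708093 read -4.47 in WT replicate 2, against -4.36 to -4.33, and A_84_P734029 read -3.34 in WT replicate 3, against -2.97 to -2.93. A_84_P723453, named for its WT signal, read 3.91 in MYB106SRDX replicate 1, against 3.51 to 3.57.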

How the results depend on the processing

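In MYB106SRDX against WT, normexp gave 137 lower interval probes, quantile normalization 481 higher and 260 lower, and probes above background on all arrays 174 and 226. In WIN1SRDX against WT, normexp gave 72 higher and 165 lower and the all-array filter 92 and 215. Between the lines, normexp gave 56 lower, quantile normalization 493 higher and 114 lower, the authors' values 140 higher, the all-array filter 152 and 95, and a fit of these 2 groups alone 159 and 120. Around the chromosome 2 centromere, MYB106SRDX against WT had 48 higher and 5 lower under normexp and 50 higher under quantile normalization, and WIN1SRDX against WT 8 lower under normexp and 9 on the authors' scale. There, between the lines, quantile normalization gave 74 higher and 1 lower, the authors' values 21 and 4, the fit of 2 groups 22 and 0, and no filter on dim probes 1 lower. The all-array filter and the 2-group fit leave fewer probes or arrays, and the 2-group fit also leaves out the narrower spread of WT. The cause of the other shifts was not tested. A_84_P714430 turned to 0.25 under normexp in MYB106SRDX against WT. Over the named probes, 23 values kept their direction and lost the call, and 1746 were unchanged. The unchanged ones include differences within slides, which carry no call: 64 in MYB106SRDX against WT, 43 in WIN1SRDX against WT and 21 between the lines. A further 79 values within slides moved.

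Leaving out 1 array at a time gave 230 to 286 higher and 362 to 435 lower in MYB106SRDX against WT, 115 to 179 and 252 to 395 in WIN1SRDX against WT, and 203 to 233 and 175 to 227 between the lines. Around the chromosome 2 centromere it gave 16 to 37 higher and 9 to 12 lower, 1 to 3 and 13 to 21, and 24 to 56 and 0 to 3 in the same comparisons. Arrays with the same replicate number correlated in their deviations by -0.13 to 0.20. Arrays with different numbers were not compared in this way, so whether the numbers pair the arrays is not settled. With a replicate block 278 were higher and 404 lower in MYB106SRDX against WT, 141 and 312 in WIN1SRDX against WT, and 239 and 191 between the lines, with 1 lower around the chromosome 2 centromere. The planned normexp on mean signals was not run, and median signals were used, an alternative chosen after seeing the data, as were the chromosome 2 counts.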

Other observations

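Interval probes numbered A_84_P7 with 5 more digits (8313) were tested at 16.2%, against 34.9% of the 499 with other numbers. Among those other numbers, A_84_P14629, A_84_P21986, A_84_P20867, A_84_P67544, A_84_P15723, A_84_P13273, A_84_P16116, A_84_P14465, A_84_P23421 and A_84_P158965 were named above. The 94 longest intervals were tested at 39.4%, and of these 37 probes 4 were higher (10.8%) and 15 lower (40.5%) in MYB106SRDX than in WT, against 22.8% and 28.2% of all tested probes. Descending intervals were called lower in WIN1SRDX than in WT at 26.8% and ascending ones at 19.6%, against 16.1% of all tested probes. No test was run for this difference. The shares called higher there were 9.85% and 10.6%, against 16.3%. In MYB106SRDX, 30.9% and 25.5% were lower than in WT, against 28.2%, and 14.1% and 13.4% lower than in WIN1SRDX, against 22.6%.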
